A study of Drosophila melanogaster with 4 samples.

Results

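The nuclear genes for respiratory complex III, cytochrome c, complex IV and the mitochondrial ATP synthase were followed in whole Drosophila melanogaster larvae. Members were taken by name: every locus of the deposited gene table whose RefSeq accessions matched an NCBI Release 6 symbol beginning UQCR-, COX plus a digit, or ATPsyn, together with cype, Cyt-c1, Cyt-c-p, ox and RFeSP. This gave 45 of 16198 loci, of which the authors tested 35 and left 10 untested. The 45 were made up of 30 main subunits, all tested, and 15 paralogs, whose symbols end in L or in L and a digit. The names COX1, COX2 and COX3 also fit the rule but belong to the mitochondrial genome. No row of the deposited gene table matched them, so these genes are not analysed here.

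RNA came from third-instar larvae homozygous for the allele kr-h1[7] (called mutant-labelled below) and from larvae labelled wildtype, both collected at 100 h after egg laying from stocks kept at 25 °C. The affected gene, Kr-h1, encodes Krüppel homolog 1, a zinc-finger regulator that juvenile hormone induces, and the series text gives the aim as a comparison of transcript levels between the genotypes. Each genotype had 2 libraries of poly(A)-selected RNA, which the authors merged into 1 FPKM value per gene (fragments scaled to transcript length and library size), so no value below carries a standard deviation. Whether the 2 libraries of a genotype are separate collections of larvae is not stated in the labels, and neither are the sex of the larvae and the strain behind the wildtype label. Kr-h1 itself stood at 9.79 FPKM in mutant-labelled larvae and 2.98 FPKM in wildtype-labelled larvae, a 3.28-fold higher level (authors' deposited table, q-value 0.000889). The mutated gene was thus higher and not lower under the mutant label, and every direction below rests on the labels. A locus is called higher or lower where the q-value of Cuffdiff, the authors' test program, is at most 0.05 in their deposited table.

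Complex III passes electrons from ubiquinol to cytochrome c, complex IV passes them from cytochrome c to oxygen, and both move protons across the inner mitochondrial membrane. The ATP synthase lets protons flow back through a ring of c subunits, whose rotation is carried by a central stalk into a catalytic head that a peripheral stalk holds still. Complexes III and IV and the ATP synthase combine many nuclear-encoded subunits with a few encoded in the mitochondrion, and muscle is among the tissues richest in them.

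The main subunits were abundant and most of them differed little between the groups. Of 30 main subunits, 2 were called higher in mutant-labelled larvae (UQCR-11 and ATPsynG), 7 were called lower (Cyt-c1, UQCR-C1, COX5A, COX6B, ATPsynB, ATPsynCF6 and ATPsynD) and 21 were not called. Among all 7058 tested loci, 4.32% were called higher and 8.73% lower. Among the 668 tested loci with a mean of at least 100 FPKM, a class that holds all 30 main subunits, 14.4% were called higher and 34.9% lower. The shares of the 30 main subunits were 6.67% higher and 23.3% lower, above the share of all tested loci and below that of abundant loci in both directions. In log2((mutant-labelled FPKM + 1)/(wildtype-labelled FPKM + 1)), the ratio used throughout, the median of the main subunits was -0.03, beside -0.03 for all tested loci and -0.07 for the abundant ones. The quartiles were -0.20 and 0.09 for the main subunits and -0.30 and 0.11 for the abundant loci. On this scale 27 main subunits lay within 0.5 of 0. The 3 outside were UQCR-11, ATPsynG and ox.

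Summed over the 45 members, the level was 14833 FPKM in mutant-labelled larvae and 15259.9 FPKM in wildtype-labelled larvae. This was 2.73% of the FPKM total in mutant-labelled larvae and 2.70% in wildtype-labelled larvae. The order of the levels was largely kept. Across the 30 main subunits, log2 FPKM in mutant-labelled and in wildtype-labelled larvae had a Pearson correlation of 0.92 and a Spearman correlation of 0.93. These describe 30 genes measured in the same libraries, and carry no test.

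**Figure D1:**
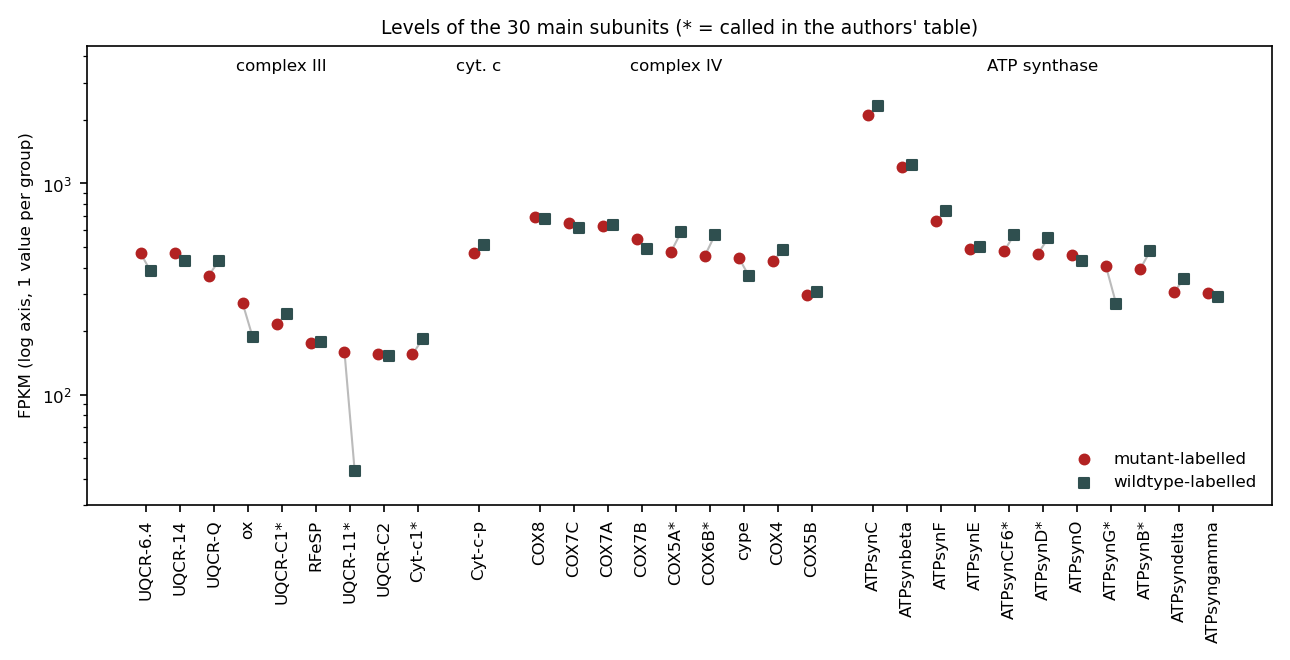
FPKM of the 30 main subunits on a log axis, 1 value per group, with mutant-labelled larvae as circles and wildtype-labelled larvae as squares. Subunits are ordered within each complex by their mutant-labelled level and an asterisk marks those called in the authors' table; UQCR-11 has the lowest wildtype-labelled level (43.4 FPKM) and ATPsynC the highest level in both groups.

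Complex III held the main subunit with the widest ratio, UQCR-11, the counterpart of the mammalian hinge protein of this complex. UQCR-11 had 159 FPKM in mutant-labelled larvae against 43.4 FPKM in wildtype-labelled larvae, a 3.67-fold higher level (authors' deposited table, q-value 0.00235). No other of the 668 abundant loci had a higher ratio than its log2 value of 1.85, and 8 lay farther from 0 in the other direction. UQCR-11 is in that class, at a mean of 101 FPKM, only through its mutant-labelled level, so this rank depends on the cut-off. Over all 7058 tested loci the highest log2 ratio was 7.34. In wildtype-labelled larvae its level was the lowest of the 9 main subunits of complex III, and the other 8 spanned 153 to 430.0 FPKM. In mutant-labelled larvae it was inside the range of the complex, above UQCR-C2 and Cyt-c1. The levels of complex III therefore spanned 3.01-fold from highest to lowest in mutant-labelled larvae and 9.90-fold in wildtype-labelled larvae.

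In the authors' table, whose coordinates overlapped the Release 6 position of every member although no build is named, UQCR-11 lies on arm 3L at 25120709 to 25126171. It is on the plus strand, in a row of its own with 1 symbol. The Ensembl annotation gives it 5 transcripts of 416 to 1083 nucleotides, and no exon of another gene overlaps its exons there. Its value depends on how Cuffdiff divided fragments among transcripts of such different length, which was not tested. The 2 other loci within 20 kb were not called. Set1, which encodes a histone methyltransferase, had 3.64 FPKM in mutant-labelled and 2.47 FPKM in wildtype-labelled larvae, and the Mediator subunit gene MED21 had 5.99 FPKM in mutant-labelled and 8.73 FPKM in wildtype-labelled larvae.

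The core proteins and the redox subunits of complex III ran slightly lower or level. Cyt-c1, the haem-bearing cytochrome of the complex, fell 1.19-fold, with 155 FPKM in mutant-labelled and 184 FPKM in wildtype-labelled larvae (authors' deposited table, q-value 0.0300). The core protein gene UQCR-C1 fell 1.11-fold (216 FPKM in mutant-labelled and 240.1 FPKM in wildtype-labelled larvae), and its q-value in the authors' deposited table, 0.0493, is just inside the threshold. The other core protein gene, UQCR-C2, had 156 FPKM in mutant-labelled and 153 FPKM in wildtype-labelled larvae and was not called. RFeSP, the Rieske iron-sulfur protein gene, was likewise not called, at 176 FPKM in mutant-labelled and 178 FPKM in wildtype-labelled larvae. Cyt-c1 lies on arm 3L at 5360211 to 5362798 and UQCR-C1 on arm 3R at 14890231 to 14892387, each in a row of 1 symbol that shares its locus with no other.

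The small subunits of complex III beside UQCR-11 were not called. The gene ox (oxen), the counterpart of mammalian UQCR10, had 272 FPKM in mutant-labelled and 187 FPKM in wildtype-labelled larvae, a ratio of 1.45-fold (q-value 0.0976, from the authors' deposited table). UQCR-6.4 had 467 FPKM in mutant-labelled and 384 FPKM in wildtype-labelled larvae. UQCR-14, related to mammalian UQCRB, had 467 FPKM in mutant-labelled and 428 FPKM in wildtype-labelled larvae. UQCR-Q was the small subunit with the lower value under the mutant label, 365 FPKM against 430.0 FPKM in wildtype-labelled larvae. Together the 5 small subunits summed to 1731 FPKM in mutant-labelled and 1472 FPKM in wildtype-labelled larvae, while both core proteins summed to 372 FPKM in mutant-labelled and 393 FPKM in wildtype-labelled larvae. Exons of ox, UQCR-14, UQCR-6.4, UQCR-C2 and RFeSP overlap those of a gene on the opposite strand. Whether the counting used strand is not given in the sources used here, so fragments of the overlapping genes cannot be told apart. Such an overlap exists for 11 of the 30 main subunits.

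Cyt-c-p, the cytochrome c gene that carries electrons between complexes III and IV in most tissues, had 469 FPKM in mutant-labelled and 512 FPKM in wildtype-labelled larvae and was not called. The authors' deposited table gave it an unadjusted p of 0.0419 and a q-value of 0.173.

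In complex IV, 2 of 9 main subunits fell and 0 rose, with a median log2 ratio of -0.02. The share that fell was 22.2%, beside 34.9% of abundant loci and 8.73% of all tested loci. COX6B, a subunit that in mammals faces the intermembrane space, fell 1.26-fold, with 454 FPKM in mutant-labelled and 572 FPKM in wildtype-labelled larvae. COX5A, a matrix-side subunit, fell 1.24-fold, with 474 FPKM in mutant-labelled and 587 FPKM in wildtype-labelled larvae. Both were listed with q-value 0.000889 by the authors' deposited table, the smallest value listed there. The COX6B row, on chromosome X at 19740537 to 19744335, also holds CG18809, so its level belongs to both genes. COX5A lies on arm 3R at 11819359 to 11820299, where an exon of glo overlaps on the opposite strand.

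The other complex IV subunits were not called. COX4, the largest nuclear-encoded subunit in mammals, was just outside the threshold, at 430.0 FPKM in mutant-labelled and 484 FPKM in wildtype-labelled larvae (authors' deposited table, q-value 0.0564). The gene cype (cyclope), which encodes the subunit called COX6C in mammals, leaned the other way, at 445 FPKM in mutant-labelled and 364 FPKM in wildtype-labelled larvae (q-value 0.129 in the authors' deposited table). The small membrane subunit genes COX7A, COX7B, COX7C and COX8 and the matrix-side COX5B had log2 ratios between -0.05 and 0.15. COX8 had the highest level of the complex in both groups (695 FPKM in mutant-labelled and 678 FPKM in wildtype-labelled larvae) and COX5B the lowest (298 FPKM in mutant-labelled and 308 FPKM in wildtype-labelled larvae). Levels within complex IV spanned 2.34-fold in mutant-labelled and 2.20-fold in wildtype-labelled larvae.

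In the ATP synthase, 3 of 11 main subunits fell and 1 rose, with a median log2 ratio of -0.15. The share that fell was 27.3%, beside 34.9% of abundant loci and 8.73% of all tested loci. The share that rose was 9.09%, beside 14.4% of abundant loci and 4.32% of all tested loci. Among genes under the rule, the subunits that fell all belong to the peripheral stalk, of which the rule holds 4 genes. Outside the rule, the head subunit gene blw also fell, 1.24-fold (q-value 0.000889 in the authors' deposited table). ATPsynB, the b subunit, fell 1.22-fold, with 392 FPKM in mutant-labelled and 478 FPKM in wildtype-labelled larvae (q-value 0.000889 in the authors' deposited table). ATPsynCF6, coupling factor 6, fell 1.20-fold, with 477 FPKM in mutant-labelled and 571 FPKM in wildtype-labelled larvae (q-value 0.0389 in the same deposited table of the authors). ATPsynD, the d subunit, fell 1.18-fold, with 466 FPKM in mutant-labelled and 550.5 FPKM in wildtype-labelled larvae (q-value 0.00302 in the authors' deposited table). The remaining stalk gene, ATPsynO, encodes the subunit that joins the stalk to the head. It was not called, at 459 FPKM in mutant-labelled and 430.4 FPKM in wildtype-labelled larvae. The role groups were laid out with these values known, so the count of 3 of 4 is a description. ATPsynB lies on arm 3L at 9729999 to 9731224, ATPsynCF6 on arm 3R at 23355220 to 23356064 and ATPsynD on arm 3R at 19095000 to 19096271, each in a row of its own.

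ATPsynG, a membrane subunit that in yeast sits where ATP synthases pair into dimers, was the main subunit under the rule that rose. Its level was 406 FPKM in mutant-labelled larvae against 269.5 FPKM in wildtype-labelled larvae, a 1.51-fold higher level (authors' deposited table, q-value 0.000889). Of the 668 abundant loci, 28 had a higher ratio than its log2 value of 0.59, and 45 lay farther from 0 in the other direction. In mutant-labelled larvae its level lay above those of ATPsynB, ATPsyndelta and ATPsyngamma, and in wildtype-labelled larvae it was the lowest of the 11 main subunits. It lies on arm 2L at 10975522 to 10976399 on the minus strand, in a row of its own, with 3 Ensembl transcripts of 477 to 733 nucleotides. None of the tested loci within 20 kb was called (Tmem214 had 178 FPKM in mutant-labelled and 161 FPKM in wildtype-labelled larvae, and the others had at most 12.8 FPKM).

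The head, central stalk and remaining membrane subunits that the naming rule holds were not called. ATPsynC, the ring subunit, was the most abundant member, at 2102 FPKM in mutant-labelled and 2339 FPKM in wildtype-labelled larvae (authors' deposited table, q-value 0.0564). Its row also holds the microRNA gene mir-4949. The catalytic subunit gene ATPsynbeta followed, at 1202 FPKM in mutant-labelled and 1226 FPKM in wildtype-labelled larvae. The central stalk gene ATPsyngamma, with 302 FPKM in mutant-labelled larvae against 289.9 FPKM in wildtype-labelled larvae, and ATPsyndelta, with 306 FPKM in mutant-labelled larvae against 354 FPKM in wildtype-labelled larvae, had much lower levels than the ring and head. ATPsynE had 492 FPKM in mutant-labelled and 503 FPKM in wildtype-labelled larvae, and ATPsynF had 666 FPKM in mutant-labelled and 738 FPKM in wildtype-labelled larvae. ATPsynC, ATPsyndelta and ATPsynF had an unadjusted p under 0.05 (0.00775, 0.0197 and 0.0365) in the authors' deposited table.

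**Figure D2:**
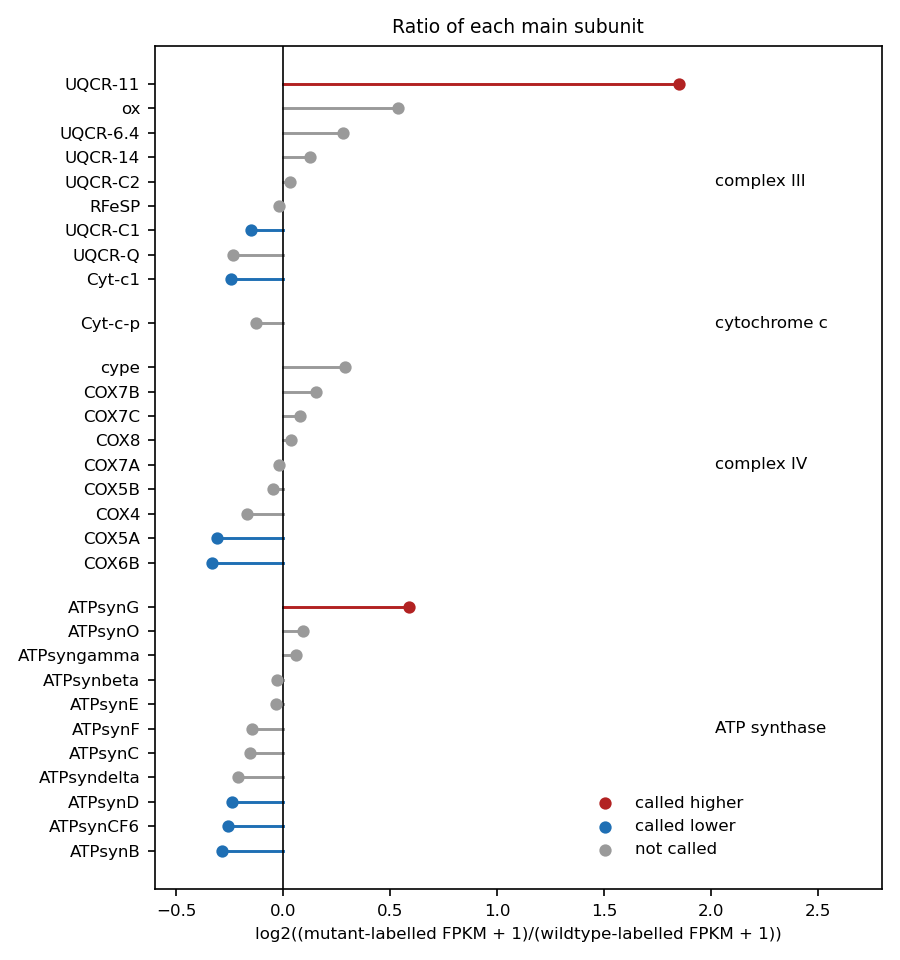
Ratio of each of the 30 main subunits, as log2((mutant-labelled FPKM + 1)/(wildtype-labelled FPKM + 1)), grouped by complex; points right of 0 are higher in mutant-labelled larvae, and colour gives the call in the authors' table. UQCR-11 (1.85) and ATPsynG (0.59) are the subunits called higher, and the 7 called lower lie between -0.33 and -0.15.

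Subunits of these complexes whose symbols fall outside the naming rule also went both ways. blw, the catalytic-head subunit alpha of the ATP synthase, fell 1.24-fold, with 660 FPKM in mutant-labelled and 820.3 FPKM in wildtype-labelled larvae. levy, the COX6A subunit of complex IV, fell 1.25-fold, with 629.6 FPKM in mutant-labelled and 786 FPKM in wildtype-labelled larvae. sun (stunted), the epsilon subunit of the central stalk and also a secreted ligand of the receptor Methuselah, rose 1.49-fold, with 625 FPKM in mutant-labelled and 419.9 FPKM in wildtype-labelled larvae. For each the authors' deposited table lists q-value 0.000889, and levy shares its locus with other rows. Within the head, blw was therefore called lower and ATPsynbeta, at a log2 ratio of -0.03, was not called, and a difference between these genes was not tested. Cyt-c-d, the testis-associated cytochrome c gene, had 8.43 FPKM in mutant-labelled and 3.14 FPKM in wildtype-labelled larvae and was not called, with q-value 0.279 according to the authors' deposited table.

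Median ratios differed with exonic length (the union of a gene's exons), among the main subunits and among abundant loci in general. All 6 main subunits with an exonic length under 600 nucleotides (ox, COX7B, COX8, cype, UQCR-14 and UQCR-6.4) had a ratio above 0, with a median log2 ratio of 0.22, although none was called. The 13 with 600 to under 1000 nucleotides had a median of -0.13, and the 11 with 1000 or more had a median of -0.15. Over the 665 abundant loci with a known length, the medians of the same classes were 0.12, -0.02 and -0.15. Calls followed the same order there, with 27.3% higher and 14.8% lower in the shortest class and 9.04% higher and 44.4% lower in the longest. The Spearman correlation of exonic length and ratio was -0.35 over the 30 main subunits and -0.31 over the 665 abundant loci, given as descriptions of genes from the same libraries. The Pearson correlations, taken with log2 exonic length, were close to 0, at -0.08 for the main subunits and -0.03 for the abundant loci. Single extreme ratios weigh heavily in a Pearson correlation, such as UQCR-11 at 1.85 and the abundant locus CG17105 at -8.56, and their part was not tested. By this union, UQCR-11 (1613 nucleotides over all its transcripts) and ATPsynG (789) were not among the short members, and sun (450) was. The shortest single transcripts of UQCR-11 (416 nucleotides) and ATPsynG (477) are under 600 nucleotides, so the class depends on the measure of length. FPKM is scaled to transcript length, fragments were sheared to an insert of 320 bp, and the part of length in these ratios was not tested.

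**Figure D3:**
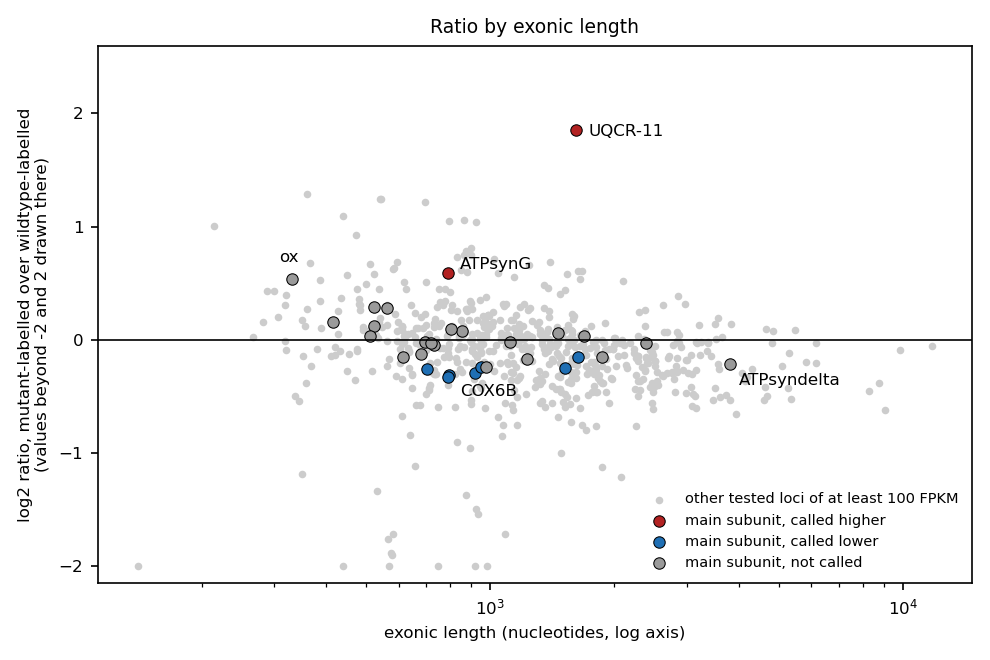
Log2 ratio of mutant-labelled over wildtype-labelled FPKM against exonic length on a log axis, for the 30 main subunits (outlined, coloured by call) and for the other tested loci of at least 100 FPKM (grey, values beyond -2 and 2 drawn at those limits). The 6 main subunits under 600 nucleotides all lie above 0, and UQCR-11 (1.85) lies above every grey point. UQCR-11 reaches a mean of 100 FPKM only through its mutant-labelled level.

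The 15 paralogs had far lower levels than the main subunits. In Drosophila many such duplicated respiratory genes are known for expression in the testis. No paralog exceeded 9.76 FPKM in either group, and UQCR-11L, UQCR-6.4L, COX6CL and ATPsynGL were listed at 0 in both. Summed, they came to 38.1 FPKM in mutant-labelled and 34.2 FPKM in wildtype-labelled larvae, while the main subunits came to 14795 FPKM in mutant-labelled and 15226 FPKM in wildtype-labelled larvae. Of the 5 tested (COX4L, COX5BL, COX7CL, ATPsynbetaL and ATPsynepsilonL), Cuffdiff called 0 by the q-value, and 0 had an unadjusted p under 0.05. Among all tested loci 13.0% were called. Differences of several fold were among these, since COX5BL had 5.10 FPKM in mutant-labelled and 1.08 FPKM in wildtype-labelled larvae (4.73-fold, q-value 0.445 in the authors' deposited table). COX7CL was listed at 9.76 FPKM in mutant-labelled and at 0 in wildtype-labelled larvae, and ATPsynepsilonL at 3.11 FPKM in mutant-labelled and 9.12 FPKM in wildtype-labelled larvae. ATPsynbetaL had 5.09 FPKM in mutant-labelled and 2.82 FPKM in wildtype-labelled larvae, and COX4L had 5.61 FPKM in mutant-labelled and 7.32 FPKM in wildtype-labelled larvae. The untested paralogs UQCR-14L, COX6AL, COX6AL2 (in a row with Ir75d), COX7AL, COX7AL2 and ATPsynCF6L had between 0 and 7.56 FPKM.

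The main genes stood far above their copies wherever both were above 0. COX4 was 76.6-fold above COX4L in mutant-labelled and 66.1-fold in wildtype-labelled larvae, and ATPsynbeta was 236-fold above ATPsynbetaL in mutant-labelled and 435-fold in wildtype-labelled larvae. In the same libraries, 14 of 15 tested testis markers had a ratio above 0 and 3 were called higher, namely Mst98Ca (19.5 FPKM in mutant-labelled and 8.13 FPKM in wildtype-labelled larvae), loopin-1 (19.6 FPKM in mutant-labelled and 12.5 FPKM in wildtype-labelled larvae) and S-Lap1 (37.3 FPKM in mutant-labelled and 21.7 FPKM in wildtype-labelled larvae). The 3 called higher were 20% of the tested markers, beside 4.32% of all 7058 tested loci. Of all tested loci, 3282 had a ratio above 0. The 18 markers summed to 0.0573% of the FPKM total in mutant-labelled and 0.0282% in wildtype-labelled larvae. The most abundant beside S-Lap1 was Mst84Da, at 49.7 FPKM in mutant-labelled and 20.3 FPKM in wildtype-labelled larvae, and it was not called. The part of testis RNA in the paralogs' values was not tested.

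**Figure D4:**
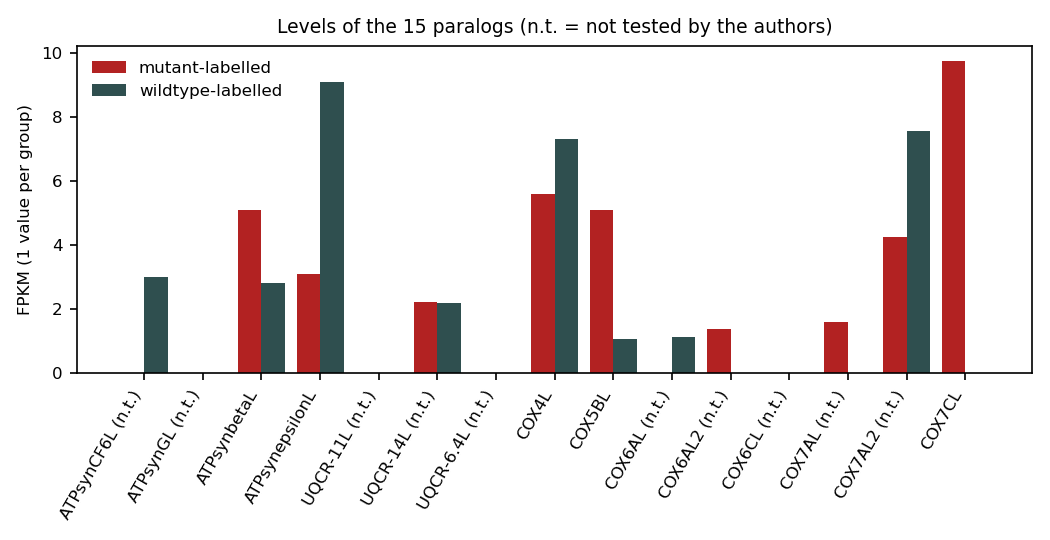
FPKM of the 15 paralogs, 1 bar per group with mutant-labelled larvae left of wildtype-labelled larvae, on an axis that starts at 0; n.t. marks those the authors did not test. No bar exceeds 9.76 FPKM, and UQCR-11L, UQCR-6.4L, COX6CL and ATPsynGL have none.

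Complexes I and II, which pass electrons to ubiquinone, were mostly not called, and differences between the complexes were not tested. In complex I, taken as the symbols beginning ND-, 1 of 33 tested subunits rose and 5 fell, with a median log2 ratio of 0.02. Any subunit with another symbol is not counted. These were 3.03% higher and 15.2% lower, beside 4.32% and 8.73% of all tested loci. Among abundant loci the shares were 14.4% higher and 34.9% lower. The subunit that rose was ND-MLRQ, in a row with mir-4942, at 751 FPKM in mutant-labelled and 549 FPKM in wildtype-labelled larvae (1.37-fold, q-value 0.00738 in the authors' deposited table). Its mammalian counterpart, NDUFA4, has been placed in complex IV. ND-39 fell least (1.22-fold, 117 FPKM in mutant-labelled and 143 FPKM in wildtype-labelled larvae) and ND-13B, in a row with CG33493, most (1.79-fold, 93.7 FPKM in mutant-labelled and 168 FPKM in wildtype-labelled larvae). ND-42, ND-75 and ND-B18 fell between them. In complex II, the succinate dehydrogenase, Cuffdiff called 0 of 5 tested genes, beside 13.0% of all tested loci. Of the 5, 2 (SdhB and SdhD) had an unadjusted p under 0.05. SdhD had 159 FPKM in mutant-labelled and 125 FPKM in wildtype-labelled larvae (q-value 0.0709 in the authors' deposited table), and SdhB, with the lower value under the mutant label, had 134 FPKM in mutant-labelled and 153 FPKM in wildtype-labelled larvae. SdhC, the most abundant on average, had 157 FPKM in mutant-labelled and 181 FPKM in wildtype-labelled larvae.

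Genes that serve these complexes were mostly not called, as were most loci: 13.0% of all 7058 tested loci were called. Lists this short can hold few or no calls at that share. Of 4 tested rows for inner-membrane carriers and porin, Mpcp2, a mitochondrial phosphate carrier, fell 1.26-fold (315 FPKM in mutant-labelled and 398 FPKM in wildtype-labelled larvae, q-value 0.000889 in the authors' deposited table). The joint row of the ADP/ATP carriers sesB and Ant2 had 1319 FPKM in mutant-labelled and 1307 FPKM in wildtype-labelled larvae. Cuffdiff called 0 of 9 assembly factors, of which 1 (Scox) had an unadjusted p under 0.05. The copper chaperone gene Cox17 had 66.8 FPKM in mutant-labelled and 52.9 FPKM in wildtype-labelled larvae. Cuffdiff also called 0 of 6 tested genes of mitochondrial DNA maintenance and transcription, with 0 at an unadjusted p under 0.05. Of these TFAM, which packages mitochondrial DNA, had 17.4 FPKM in mutant-labelled and 16.3 FPKM in wildtype-labelled larvae, and mtSSB, a single-strand binding protein, had 14.7 FPKM in mutant-labelled and 20.2 FPKM in wildtype-labelled larvae. Among nuclear regulators of mitochondrial genes Cuffdiff called 0 of 4, again with 0 at an unadjusted p under 0.05, and srl, the fly homologue of PGC-1, had 5.33 FPKM in mutant-labelled and 5.12 FPKM in wildtype-labelled larvae.

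Marker genes of muscle and fat body, large tissues of the larva, were lower in mutant-labelled larvae. Of 18 larval muscle markers, 13 fell and 0 rose, and all 18 had a ratio below 0 (median -0.26). They made up 2.85% of the FPKM total in mutant-labelled and 3.32% in wildtype-labelled larvae, with Act57B (4178 FPKM in mutant-labelled and 5842 FPKM in wildtype-labelled larvae) and Mlc2 (2462 FPKM in mutant-labelled and 2715 FPKM in wildtype-labelled larvae) the most abundant. All 6 fat body markers fell, and they made up 3.30% of the total in mutant-labelled and 4.10% in wildtype-labelled larvae, with Lsp1gamma (5760.2 FPKM in mutant-labelled and 6553 FPKM in wildtype-labelled larvae) and Lsp1beta (4548 FPKM in mutant-labelled and 5571 FPKM in wildtype-labelled larvae) the most abundant. Called lower were 72.2% of the muscle and 100% of the fat body markers, beside 8.73% of all tested loci. The share was 34.9% among abundant loci and 44.4% among those with an exonic length of at least 1000 nucleotides, which every marker has. In whole larvae, fewer cells of a type and less RNA per cell cannot be told apart. The part of these tissues in the 7 subunits that fell was not tested.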

How the data were processed

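RNA-seq libraries (2 mutant-labelled, 2 wildtype-labelled) were processed by the authors with TopHat2, Cufflinks and Cuffdiff, per the submitters' processing notes. Of versions, settings, genome build and annotation nothing is given in the sources used here. The authors' deposited gene table holds 1 FPKM per group, the log2 fold change of those values, Cuffdiff's test statistic (a score, not used), its p-value and its q-value, which was recomputed as a Benjamini-Hochberg adjustment over the 7058 tested loci. It holds no counts, and 23 loci had values above 0 but under 0.001 FPKM, too low for whole fragments, so depth is unknown. The p-values reflect at best the variation between libraries, possibly only technical.

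Of 30529 accessions, 30273 matched RefSeq symbols of Release 6 (93 of 94 for the members), and list names were also looked up among synonyms. All 45 members overlapped their Release 6 position, and printed starts are 1-based. Of the main subunits, 12 of 30 share a locus or hold several symbols. Exonic length is the union of exons in Ensembl release 115. Ratios use a pseudocount of 1 FPKM, which understates changes of low genes. The members, lists, role groups and length classes were chosen with earlier results of these data known. Every member is named, and of each other list the called genes, by name or count, and the most abundant. The counting step was run on planted changes, with the q-values of the planted genes set to pass. That run checks the code and not the authors' calls. Software was matplotlib 3.10.9, scipy 1.17.1, pandas 2.3.3, numpy 2.4.6 and Python 3.11.15.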

Additional observations from a re-analysis of the deposited data

How the results depend on the processing

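The thresholds changed the counts most. At an unadjusted p under 0.05, 4 members were higher and 12 lower in mutant-labelled larvae, with 2 higher in complex III, 1 higher in complex IV and 6 lower in the ATP synthase. At a q-value of at most 0.01, 4 members were lower, with 0 in complex III. With a fold of at least 1.5 in place of the q-value (loci at 0 in a group left out), 4 members were higher (1 in complex IV, 2 in the ATP synthase) and 1 was lower (0 in complex III, 0 in complex IV, 1 in the ATP synthase). Without rows of several symbols or shared loci, 1 complex IV member was lower and the members' median log2 ratio was -0.13, against -0.03 with them. Centring on the median of all tested loci (-0.03) turned the members' median to 0.01, brought the ratio of summed FPKM to 0.996 from 0.972, and turned the log2 ratios of ATPsynE (0.0036), ATPsynbeta (0.0071), COX7A (0.015) and RFeSP (0.014), which were not called, above 0. Pseudocounts of 0.1 and 10 changed no direction among the 45 genes followed singly, which are not the 45 members. These were the 35 tested members and the called genes of the comparison lists, without the tissue markers. Of these, Cyt-c1, UQCR-C1, ATPsynCF6 and ND-42 lost their call at a q-value of 0.01, and 7 genes gained one at an unadjusted p under 0.05. Restricting the members to main subunits, and treating genes singly, were choices made after seeing the data. Leaving out replicates was not run, since the table holds no value per library. No paired analysis was possible because the table gives 1 value per group. The depth is unknown, so no detection limit can be given for the paralogs, all under 10 FPKM.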
